A study of Mus musculus with 8 samples.

Results

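Ubiquitin-conjugating enzymes (E2s) and ubiquitin-specific proteases (USPs) put ubiquitin on proteins and take it off, and their transcripts were followed in bone marrow-derived macrophages (BMDMs) of the mouse. The genes were chosen by name: every symbol starting with Ube2, and every symbol made of Usp and a number, without Usp18 and Usp9y. This gave 80 of the 21080 gene symbols measured, 34 Ube2 and 46 Usp genes. Of these, 76 (32 Ube2 and 44 Usp) passed the minimum mean coverage of 0.5 and were tested among 16284 genes. The other four were at or near 0: Usp29 and Usp51 were listed at 0 in all 8 samples, Ube2d2b reached at most 1.63 in any sample and Ube2dnl2 at most 0.187. Ube2cbp carries an E2-like symbol but encodes an E3 ligase, and it is counted apart from the E2 roles.

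The groups were WT and Nudt21-cKO at 0 h, and both genotypes after 4 h of LPS that followed IFNγ priming overnight, with 2 samples in each. All animals were C57BL/6 and carried LysM Cre, which is active in myeloid cells, and the cKO also had both Nudt21 alleles flanked by loxP sites (Nudt21 fl/fl), so WT here means sex-matched LysM Cre littermates. Each sample pooled the BMDMs of 2 mice, and samples 1 and 2 were WT and samples 3 and 4 cKO at both times. Whether samples with the same number at 0 h and 4 h came from the same pools is not stated. The labels list the stimulation for every sample, and the 0 h samples were taken as unstimulated from their titles. Nudt21 binds UGUA in pre-mRNA and favours distal polyadenylation sites, and the series asked which transcripts depend on it in inflammatory macrophages.

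An E1 enzyme activates ubiquitin and hands it to an E2, which works with an E3 ligase to join it to a target. Chains linked through lysine 48 send proteins to the proteasome, while chains linked through lysine 63 build signalling platforms below Toll-like and cytokine receptors. Deubiquitinases cut these chains, and the USPs are their largest family. Some E2s carry other modifiers, such as NEDD8 and the interferon-induced ISG15.

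Values were taken to be read depths averaged over the bases of a gene (coverage), which lets levels be compared between genes. Nudt21 coverage was 718 and 640.8 in WT against 158 and 172 in cKO at 0 h, and 547 and 575 against 142 and 115 at 4 h. Its log2 fold change was -2.13 (SE 0.13, adjusted p = 0.00396) at 0 h and -2.49 (SE 0.13, adjusted p = 0.00178) at 4 h, and the groups did not overlap. The macrophage markers Adgre1, Csf1r and Cd68 were high in every sample, and none of the 8 macrophage markers was at 0, with a summed coverage of 120500 to 132900 at 0 h and 64070 to 75280 at 4 h. Of these 8, Adgre1 and Fcgr1 were called lower in cKO at both times, and at 4 h Itgam was called lower and Cd68 higher, and their part in the E2 and USP values was not tested. The summed markers of T cells (5 genes), B cells (4) and red cells (3) reached at most 199.6, 143 and 10.87. At 0 h those of T cells were 173.4 to 199.6 in WT against 140.8 to 146.1 in cKO, and those of B cells 125.4 to 143.3 against 67.9 to 73.46. At 4 h the T cell sums overlapped, and the B cell sums were 10.49 to 11.04 against 1.696 to 8.076. Those of granulocytes and their precursors (7) were 20450 to 22100 in WT against 23470 to 31050 in cKO at 0 h, and 15790 to 19030 against 18580 to 21470 at 4 h. No gene of these lists was called between genotypes. Dendritic cell markers (4) summed to 9.33 to 29.01 at 0 h and 156 to 261 at 4 h, and of these Xcr1, listed at 0 in 2 samples at 0 h, was called lower in cKO at 4 h. Fibroblast markers (4) summed to 86.9 to 185 in WT and 154 to 219.5 in cKO at 0 h, and to 16.45 to 80.85 and 77.3 to 114 at 4 h, with none called between genotypes. The part of any of these other cell types in the results was not tested. Summed coverage was similar in all samples, from 14950347 to 17954882. At 4 h, however, the median log2 coverage of a sample differed from that at 0 h by -1.47 in WT and -1.20 in cKO, and fewer genes were above 0 (14737 to 15947, against 16362 to 16486). A gene that kept its share of all coverage therefore rises against the median gene at 4 h. Differences are given relative to the median gene, and coverage is printed as deposited. Because of the shift at 4 h, calls that hold under all 4 scalings (median, none, equal sum and quantile) are counted separately. With 2 samples per group, a call means an adjusted p under 0.05 in limma over all tested genes.

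To show the element Nudt21 reads, the last UGUA of the annotated 3′UTR is given below for 7 genes that differed between the genotypes under all 4 scalings. It is written as DNA (TGTA, in capitals) with up to 10 bases on each side, 5′ to 3′ on the gene's strand, from GRCm38 with GENCODE M21 gene models. Usp32, Ube2k and Usp35 were called at 0 h and the others at 4 h.
Usp32: ggtttttcctTGTAcaagtaaaca
Ube2k: gaaacactttTGTAtacaactgaa
Usp35: gtatgaactgTGTAtaatgcacct
Usp53: ataagcaaatTGTAatgggtgtta
Ube2t: cttgtacataTGTAtttagaaaac
Usp49: accttgttttTGTAataagtttct
Usp42: atatacggcaTGTAagatttatat
These motifs lie at chr11:84984471-84984474, minus strand (Usp32), chr5:65598887-65598890, plus strand (Ube2k), chr7:97309508-97309511, minus strand (Usp35), chr3:122931548-122931551, minus strand (Usp53), chr1:134974113-134974116, plus strand (Ube2t), chr17:47686702-47686705, plus strand (Usp49) and chr5:143710360-143710363, minus strand (Usp42). Their whole 3′UTRs hold 20 UGUA motifs in Usp32, 31 in Ube2k, 2 in Usp35, 26 in Usp53, 5 in Ube2t, 28 in Usp49 and 14 in Usp42. A match describes the letters of the transcript and does not show that Nudt21 binds there.

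Ube2d3, an E2 that starts chains with many ligases, had the highest coverage of all in every group, at 5690 and 5642 in WT against 6624 and 6727 in cKO at 0 h and 8267 and 7832 in WT against 9033 and 9610 in cKO at 4 h. Over the 8 samples, Ube2l3 (mean 4945), Usp25 (2690), Ube2n (2667) and Ube2l6 (2363) were also among the highest. The median of the 80 genes was 562 in WT and 646 in cKO at 0 h and 320.4 in WT and 395 in cKO at 4 h. Between 24 and 32 of them had a group mean over 1000, and 8 to 10 were under 10. Together, the Ube2 genes took 0.250% to 0.261% of all coverage in WT and 0.270% to 0.277% in cKO at 0 h, and 0.295% to 0.298% and 0.305% to 0.309% at 4 h. The Usp genes took 0.138% to 0.172% in all samples.

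At 0 h, Usp32 and Ube2k were higher and Usp35 was lower in cKO BMDMs than in WT BMDMs. These were the 3 calls among the 76 genes, all 3 under each of the 4 scalings. The 2 rises are 2.63% of the genes, beside 2.69% of all tested genes called higher (1.90% under all 4 scalings), and the single fall is 1.32%, beside 2.11% called lower (1.33% under all 4 scalings). The share of E2 and USP genes called was thus close to that of all genes. The plot of coverage per sample shows these genes together with those called at 4 h.

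**Figure D1:**
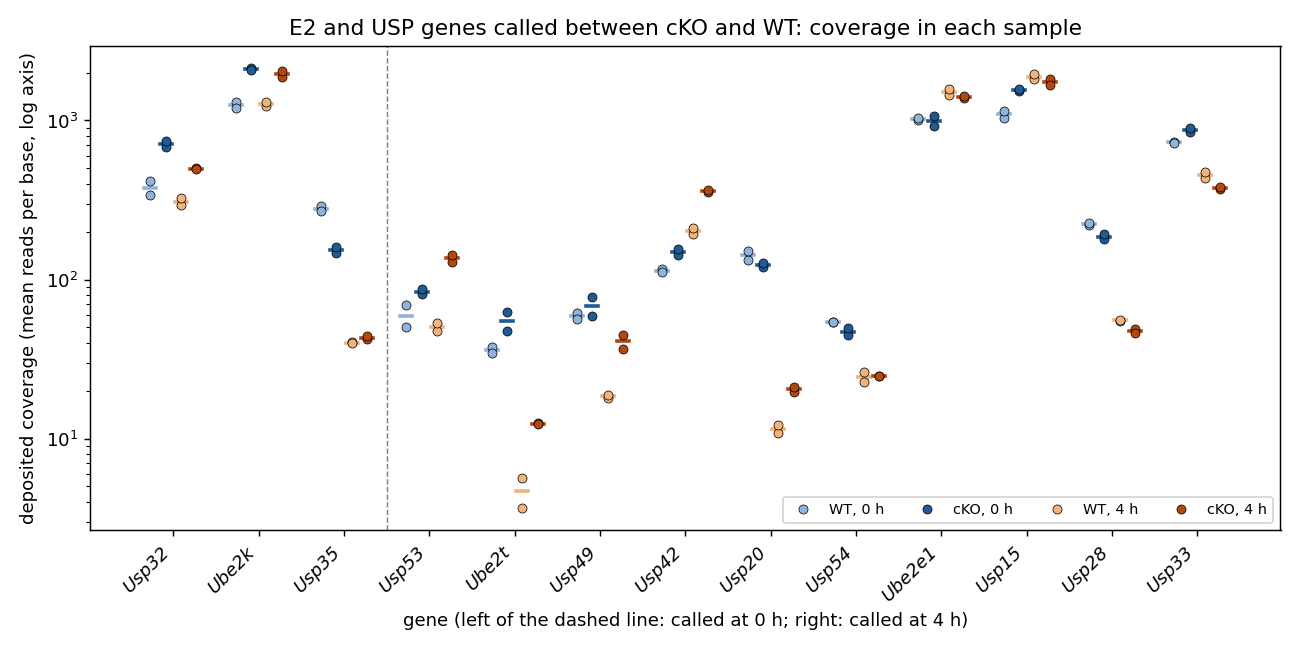
Deposited coverage (mean reads per base, log axis) of the 13 E2 and USP genes called between genotypes, with a point for each sample and a line at each group mean. Usp32, Ube2k and Usp35, left of the dashed line, were called at 0 h, and the 10 genes on the right were called at 4 h.

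Usp32 (chr11:84984437-85140281 on GRCm38) encodes a membrane-anchored deubiquitinase of the Golgi and endosomes. Its coverage was 341 and 415 in WT against 682 and 748 in cKO at 0 h. Both cKO samples lay well above both WT samples, a 1.89-fold difference of the means, and the log2 fold change was 0.83 (SE 0.13, adjusted p = 0.035). At 4 h its coverage was 294 and 324 in WT against 502 and 492 in cKO, again without overlap, but the log2 fold change of 0.33 (SE 0.13, adjusted p = 0.145) did not pass.

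Ube2k (chr5:65537245-65598989) encodes an E2 that builds lysine 48 chains by itself. Coverage was 1302 and 1206 in WT against 2140 and 2090 in cKO at 0 h, with a log2 fold change of 0.66 (SE 0.12, adjusted p = 0.0486). It was 1227 and 1303 in WT against 1888 and 2051 in cKO at 4 h, and the log2 fold change of 0.28 (SE 0.12, adjusted p = 0.171) did not pass. The WT and cKO samples did not overlap at either time.

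Usp35 (chr7:97309403-97332308) encodes a relative of the mitochondrial deubiquitinase Usp30. Its coverage was 289.9 and 269 in WT against 147 and 160.0 in cKO at 0 h, and both cKO samples were low. The WT mean was 1.82 times the cKO mean, and the log2 fold change was -0.96 (SE 0.12, adjusted p = 0.0228). At 4 h coverage had dropped in both genotypes, to 40.3 and 39.9 in WT against 42.0 and 44.4 in cKO. Relative to the median gene the difference was -0.25 (SE 0.12, adjusted p = 0.216) there, and on the deposited scale it was 0.11.

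These 3 calls rest on few samples. In a fit of only the 4 samples at 0 h none of them held, and that fit called 0.738% of all genes higher and 0.345% lower. Leaving out any 1 of the 8 samples ended the call of Ube2k (adjusted p up to 0.18), that of Usp32 held only without WT sample 2 at 0 h (up to 0.163) and that of Usp35 held only when a stimulated WT sample was the one left out (up to 0.11). The log2 fold changes stayed within 0.59 to 0.75, 0.68 to 0.98 and -1.07 to -0.86 over 18 alternatives each.

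Of the other 73 genes, 15 had an unadjusted p under 0.05 at 0 h and did not pass the adjustment. With the 3 calls this is 23.7% of the genes, beside 21.7% of all tested genes. Ube2l3, which serves HECT and RING-between-RING ligases, was the most abundant of these, at 4324 and 4249 in WT against 6298 and 6240 in cKO with a log2 fold change of 0.45 (SE 0.12, adjusted p = 0.118). Usp15, a deubiquitinase of the TGF-β pathway, was at 1043 and 1145 in WT against 1537 and 1579 in cKO, with 0.42 (SE 0.11, adjusted p = 0.104). Usp3, which acts on ubiquitinated histones, was at 721 and 752 in WT against 988 and 1104 in cKO, with 0.41 (SE 0.10, adjusted p = 0.0946). In these 3 genes the cKO samples were the higher ones. Of the 15, 11 had a log2 fold change above 0 and 4 one below it: Usp10 (-0.33, adjusted p = 0.141), Usp28 (-0.35, adjusted p = 0.14), Usp20 (-0.29, adjusted p = 0.215) and Usp54 (-0.31, adjusted p = 0.107).

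By role, the E2 groups had medians between -0.05 and 0.22 at 0 h. The chain-starting E2s (8 tested) had a median log2 fold change of 0.03, and Ube2d2a, at 1747 and 1367 in WT against 2226 and 2476 in cKO, had the largest in that group, 0.51 (SE 0.16, adjusted p = 0.154). The E2s of lysine 48 chains and ER-associated degradation (6) had a median of 0.02 with Ube2k as the single call. Ube2n and its partners Ube2v1 and Ube2v2, which make lysine 63 chains, had log2 fold changes of 0.12, -0.27 and 0.46, none of which passed. The E2s for ubiquitin-like modifiers (4) ranged from -0.48 for Ube2l6 to 0.14 for Ube2f. Over all 76 genes the median was 0.04 relative to the median gene and 0.13 on the deposited scale, where the median of all tested genes was 0.09.

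After IFNγ and LPS for 4 h, cKO BMDMs had 5 of the 76 genes called higher and 5 called lower than WT BMDMs. The higher genes were Ube2t, Usp53, Usp49, Usp42 and Usp20, and the lower genes were Usp33, Usp28, Usp15, Ube2e1 and Usp54. Each direction holds 6.58% of the genes, beside 7.57% of all tested genes called higher and 8.89% called lower. Under all 4 scalings, 4 genes (5.26%; Ube2t, Usp53, Usp49 and Usp42) were higher, beside 5.81% of all genes, and none was lower, beside 3.22%. On the deposited scale 21 genes (27.6%) were called higher, beside 19.6% of all genes, and the other 55 were not called, beside 3.38% of all genes called lower. The median log2 coverage of a sample, to which the samples were scaled, was itself higher by 0.36 in cKO. None of the 5 lower genes was called on the deposited scale. The calls of Usp33 and Usp28 held with equal summed coverage and with quantile scaling, and their deposited coverage was lower in cKO without overlap, whereas those of Usp15, Ube2e1 and Usp54 were lost under both. In a fit of only the 4 samples at 4 h none of these 10 calls held, and that fit called 1.12% of all genes higher and 0.495% lower. The plot by role sets all genes of both times side by side.

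**Figure D2:**
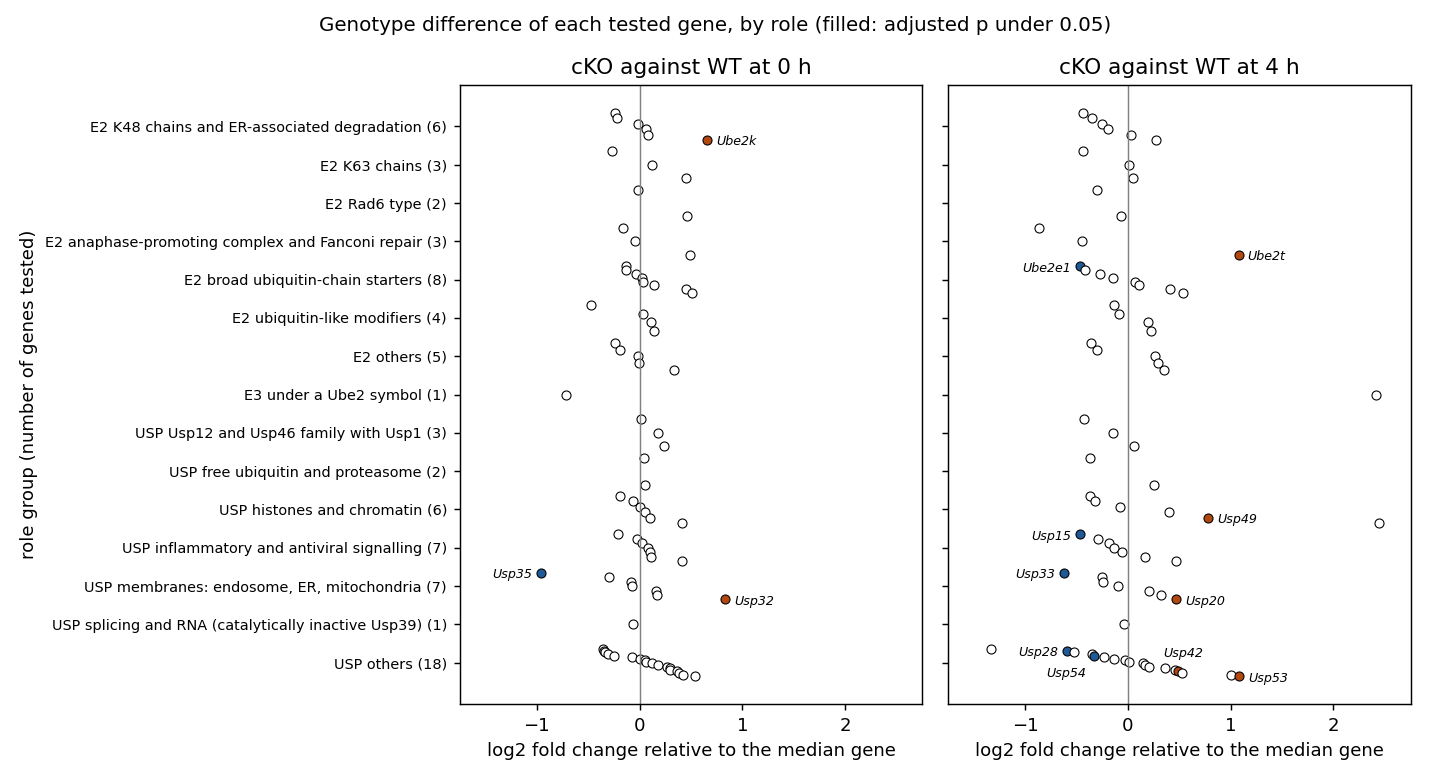
Log2 fold change of cKO against WT, relative to the median gene, for each of the 76 tested genes at 0 h (left) and 4 h (right), with a point for each gene and a row for each role. Filled points passed an adjusted p of 0.05: 3 genes at 0 h and 10 at 4 h. The points beyond 2 at 4 h are Ube2cbp and Usp44, both with coverage of at most 3.45 there. Usp43 and Usp44 had no coverage in any sample at 0 h, so their points on the left are not measured differences.

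Usp53 (chr3:122931486-122984900) encodes a USP family protein of tight junctions. Coverage was 50.1 and 68.7 in WT against 81.0 and 87.1 in cKO at 0 h, and 47.3 and 53.2 in WT against 129.6 and 143 in cKO at 4 h. The stimulated cKO samples were the highest of all 8, 2.71 times the stimulated WT mean, and the log2 fold change at 4 h was 1.08 (SE 0.18, adjusted p = 0.0213). Against 0 h, its log2 difference at 4 h on the deposited scale was -0.23 in WT and 0.70 in cKO.

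Ube2t (chr1:134962565-134974180) encodes the E2 that monoubiquitinates Fancd2 and Fanci in DNA crosslink repair. It was at 37.8 and 34.5 in WT against 47.2 and 62.4 in cKO at 0 h, and at 3.65 and 5.66 in WT against 12.4 and 12.3 in cKO at 4 h. Coverage was low in all stimulated samples, and within them the cKO mean was 2.66 times the WT mean, with a log2 fold change of 1.08 (SE 0.17, adjusted p = 0.0209). The call was lost when either stimulated cKO sample was left out (adjusted p up to 0.103 over the alternatives).

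Usp49 (chr17:47630690-47686739), which encodes a histone H2B deubiquitinase, was at 18.1 and 18.7 in WT against 36.6 and 45.04 in cKO at 4 h, after 61.2 and 56.9 in WT against 59.2 and 77.7 in cKO at 0 h. The genotypes overlapped at 0 h and separated at 4 h, where the log2 fold change was 0.78 (SE 0.17, adjusted p = 0.0417). Usp42 (chr5:143710325-143759753), which encodes a deubiquitinase of p53, was at 116 and 111 in WT against 142 and 155 in cKO at 0 h and at 194 and 209.5 in WT against 355 and 368 in cKO at 4 h. The cKO samples were higher at both times, and the log2 fold change was 0.29 (SE 0.09, adjusted p = 0.155) at 0 h and 0.48 (SE 0.09, adjusted p = 0.0297) at 4 h. Leaving out any 1 sample ended the call of Usp49 (adjusted p up to 0.159). The call of Usp53 held only when the sample left out was a WT sample at 0 h, and that of Usp42 also when it was WT sample 1 at 4 h (up to 0.111 and 0.141).

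Usp20 and Usp33 encode close relatives that deubiquitinate the β2-adrenergic receptor, and at 4 h they were called in opposite directions. Usp20 was at 133 and 151 in WT against 119.6 and 127 in cKO at 0 h and at 10.8 and 12.1 in WT against 19.7 and 21.1 in cKO at 4 h. So its cKO samples were the lower ones at 0 h and the higher ones at 4 h, where the log2 fold change was 0.47 (SE 0.11, adjusted p = 0.0474). Usp33 was at 732 and 725 in WT against 849.9 and 902 in cKO at 0 h and at 433 and 473 in WT against 372 and 384 in cKO at 4 h. Its cKO samples were the higher ones at 0 h and the lower ones at 4 h, with a log2 fold change of -0.62 (SE 0.09, adjusted p = 0.0159) at 4 h relative to the median gene. On the deposited scale that difference was -0.26 and was not called. Leaving out either stimulated cKO sample ended the call of Usp33 (adjusted p up to 0.0766, and up to 0.118 over all alternatives), and that of Usp20 held only when the sample left out was a WT sample at 0 h (up to 0.195).

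The other four genes called lower differed little in coverage. Usp28, a deubiquitinase of Myc, was at 55.0 and 56.0 in WT against 48.6 and 45.8 in cKO at 4 h, with -0.59 (SE 0.10, adjusted p = 0.0249). Usp15 was at 1822 and 1954 in WT against 1828 and 1678 in cKO, with -0.47 (SE 0.11, adjusted p = 0.0445). The groups of Usp15 overlap as deposited and separate after scaling, and the deposited difference was -0.11. Ube2e1, an E2 of the chain-starting group, was at 1453 and 1568 in WT against 1393 and 1417 in cKO, with -0.46 (SE 0.09, adjusted p = 0.0352). Usp54 was at 22.6 and 26.1 in WT against 24.9 and 24.7 in cKO, with -0.33 (SE 0.08, adjusted p = 0.0498), and on the deposited scale the difference was 0.03. Leaving out any 1 sample ended the calls of Usp15 and Usp54, that of Ube2e1 held only without WT sample 2 at 4 h, and that of Usp28 held without that sample or a WT sample at 0 h. In the order Usp28, Ube2e1, Usp15 and Usp54, the adjusted p rose to 0.141, 0.552, 0.519 and 0.924 over the alternatives.

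Over the 76 genes, the median genotype difference at 4 h was -0.06 relative to the median gene and 0.30 on the deposited scale, where that of all tested genes was 0.28. Among the genes outside the calls, Ube2d2a was at 1316 and 1283 in WT against 2480 and 2362 in cKO, with 0.54 (SE 0.16, adjusted p = 0.0801). Ube2l3 was at 3911 and 3963 in WT against 5051 and 5527 in cKO, with 0.06 (SE 0.12, adjusted p = 0.774). Ube2m, an E2 for NEDD8, was at 965 and 963 in WT against 1424 and 1402 in cKO, with 0.19 (SE 0.13, adjusted p = 0.371). The deubiquitinases Usp7, Usp8 and Usp14 had log2 fold changes of -0.32, -0.10 and -0.36, with adjusted p of 0.117, 0.507 and 0.0658. As deposited, their means at 4 h were 1296, 1036 and 864.7 in WT against 1332, 1241 and 862.2 in cKO, so these differences depend on the scaling.

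Ube2c and Ube2s, the E2s of the anaphase-promoting complex, are high in dividing cells, and so is Ube2t. Ube2c was at 107 and 192 in WT against 101 and 100.5 in cKO at 4 h, with -0.87 (SE 0.21, adjusted p = 0.0524), and Ube2s was at 2273 and 2007 in WT against 2078 and 1955 in cKO, with -0.44 (SE 0.19, adjusted p = 0.186). WT sample 2 was the highest in Ube2c, and it was also the highest of the stimulated samples in Top2a, Cdk1 and Birc5. The summed coverage of the 10 markers of dividing cells was 2274 to 2993 in stimulated WT and 3949 to 3986 in stimulated cKO, and 1381 to 1513 and 1544 to 1654 at 0 h, and none of the markers was at 0 in any group. Mki67 carried most of the cKO sum (2998 and 3112) and was called higher (0.82, adjusted p = 0.0283), whereas Cdk1 was called lower (-1.22, adjusted p = 0.0213) and the other eight were not called. The part of dividing cells in the values of Ube2c, Ube2s and Ube2t was not tested, and in bulk RNA fewer cells of a type and less RNA per cell cannot be told apart.

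More E2 and USP genes were called with stimulation than between genotypes. Ube2l6, Usp47, Usp12, Ube2f, Ube2z and Ube2s rose in both genotypes, and Usp2, Usp20, Usp48, Ube2t and Usp30 fell in both. Relative to the median gene, stimulated WT BMDMs held 50 of 76 genes called higher (65.8%) and 10 called lower (13.2%), beside 36.9% and 23.5% of all tested genes. In cKO 47 (61.8%) were called higher and 9 (11.8%) lower, beside 35.1% and 23.1%. On the deposited scale the counts turned to 15 (19.7%) higher and 44 (57.9%) lower in WT, beside 12.9% and 58.2% of all genes, and to 18 (23.7%) and 40 (52.6%) in cKO, beside 14.5% and 54.5%. Under all 4 scalings, 14 genes (18.4%) were called higher and 10 (13.2%) lower in WT, beside 12.6% and 21.7% of all genes. In cKO 16 (21.1%) were called higher and 9 (11.8%) lower, beside 13.8% and 21.7%. Calls of this last kind alone, Usp43 and Usp44 excepted, are described as rises and falls with stimulation here.

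Usp43 and Usp44, listed at 0 in all samples at 0 h, passed the filter on low coverage only through the stimulated samples, so their calls as higher were fixed by the filter and are not read as rises. Without the genes at 0 in all samples of a time, a choice made after seeing the data, 13 of 74 genes (17.6%) rose in WT and 14 (18.9%) in cKO, beside 12.3% and 13.4% of 15285 genes. The rises were shared by 12 genes (16.2%) in both genotypes, beside 10.6% of all genes: Ube2e1, Ube2e2, Ube2f, Ube2l6, Ube2n, Ube2s, Ube2z, Usp12, Usp25, Usp31, Usp42 and Usp47. The falls were shared by 9 (12.2%), beside 16.4%: Ube2t, Usp2, Usp20, Usp21, Usp28, Usp30, Usp35, Usp37 and Usp48. Usp15 rose and Ube2o fell under all 4 scalings in WT alone, and Ube2j1 and Usp53 rose in cKO alone, but none of these 4 passed the test of a difference between genotypes. The plot of stimulation by genotype shows them.

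**Figure D3:**
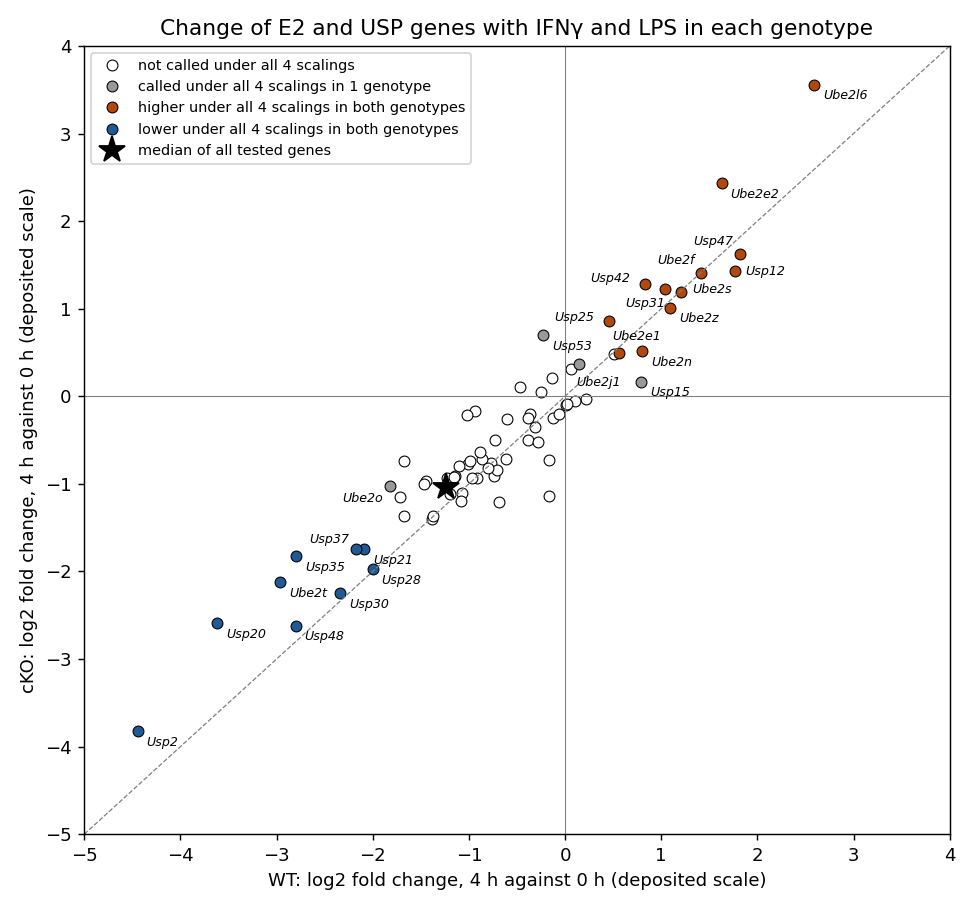
Log2 fold change of 4 h against 0 h on the deposited scale in WT (x axis) and cKO (y axis), with a point for each of 73 tested genes (Ube2cbp, Usp43 and Usp44, at or near 0 in whole groups, are left out). Coloured points were called in both genotypes under all 4 scalings, the star marks the median of all tested genes (-1.24 in WT and -1.03 in cKO), and Ube2l6 and Usp2 lie at the ends.

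Among the E2s for ubiquitin-like modifiers, Ube2l6 (chr2:84798828-84810003), the E2 for ISG15, rose the most. Its coverage was 566 and 554 in WT against 387 and 477 in cKO at 0 h and 3764 and 3038 in WT against 4922 and 5196 in cKO at 4 h. On the deposited scale this was a 6.07-fold rise of the mean in WT and 11.7-fold in cKO, and relative to the median gene the log2 fold changes were 4.06 (SE 0.20, adjusted p = 7.62e-05) and 4.76 (SE 0.20, adjusted p = 5.29e-05). Its modifier, Isg15, went from 37.05 and 37.74 to 10570 and 13640 in WT and from 44.8 and 58.3 to 15230 and 15890 in cKO, and its E1, Uba7, from 708 and 707 to 1366 and 1506 in WT and from 664 and 692 to 2623 and 2689 in cKO. Ube2f, an E2 for NEDD8, rose from 926 and 852 to 2404 and 2314 in WT and from 972 and 1120 to 2781 and 2737 in cKO. The other NEDD8 E2, Ube2m, was at 1161 and 972 and then 965 and 963 in WT and was not called under all 4 scalings.

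Ube2n, which makes lysine 63 chains, rose from 1937 and 1904 to 3360 and 3320 in WT and from 2303 and 2150 to 3341 and 3018 in cKO. Its cofactors Ube2v1 and Ube2v2 were not called under all 4 scalings, and Ube2v1 was at 882 and 1158 in WT against 1476 and 1217 in cKO at 4 h, after 1377 and 1422 and 1246 and 1236. Ube2z, which takes ubiquitin from the E1 Uba6, rose from 1111 and 1306 to 2630 and 2496 in WT and from 1222 and 1328 to 2631 and 2501 in cKO. Ube2s rose from 944 and 903 to 2273 and 2007 in WT and from 745 and 1042 to 2078 and 1955 in cKO, while Ube2t fell from the levels above by 2.96 in WT and 2.12 in cKO on the deposited log2 scale. So the E2s of dividing cells did not move as a block.

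Within the chain-starting E2s, Ube2e1 and Ube2e2 rose. Ube2e2 was low at 0 h, at 47.3 and 25.2 in WT against 31.0 and 36.6 in cKO, and reached 115 and 99.7 in WT against 183 and 181 in cKO. Ube2e1 went from 1010 and 1032 to 1453 and 1568 in WT and from 928 and 1065 to 1393 and 1417 in cKO. The third gene of this type, Ube2e3, was at 752 and 718 and then 482 and 486 in WT and was not called under all 4 scalings. Among the 6 E2s of lysine 48 chains and ER-associated degradation, only Ube2j1 in cKO was called under all 4, at 1041 and 1149 and then 1354 and 1468.

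Among the USPs, Usp47, which acts on the base excision repair polymerase, and Usp12, a partner of Wdr48, had the largest rises by fold among genes with a group mean over 1000. Usp47 went from 848 and 1045 to 3270 and 3393 in WT and from 1071 and 1112 to 3464 and 3269 in cKO, 3.52-fold and 3.08-fold on the deposited scale. Usp12 went from 783 and 933 to 2832 and 2979 in WT and from 1051 and 1014 to 2816 and 2741 in cKO, 3.39-fold and 2.69-fold. Its close relative Usp46 and the related Usp1, which also bind Wdr48, were not called under all 4 scalings. Usp1 was at 421 and 475 and then 136 and 144 in WT, and Usp46 at 140.3 and 154 and then 58.8 and 81.7.

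Of the 7 USPs of inflammatory and antiviral signalling, Usp25, which deubiquitinates TRAF proteins, rose from 1946 and 2018 to 2649 and 2786 in WT and from 2083 and 2222 to 3893 and 3919 in cKO. Usp15 rose in WT, from 1043 and 1145 to 1822 and 1954, and was at 1537 and 1579 and then 1828 and 1678 in cKO. Usp2 had the largest of the 9 shared falls, from 139 and 123 to 8.21 and 4.22 in WT and from 127 and 177 to 11.2 and 9.76 in cKO, log2 differences of -4.45 and -3.83 on the deposited scale. Usp21 fell from 564 and 502 to 125 and 125 in WT and from 448 and 539 to 161 and 133 in cKO. Usp31 and Usp42 rose, Usp31 from 104 and 124 to 238 and 229 in WT and from 168 and 186 to 407 and 418 in cKO.

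Usp30, which sits on the outer mitochondrial membrane and opposes Parkin, fell from 324 and 316 to 51.7 and 77.2 in WT and from 319 and 332 to 68.9 and 68.0 in cKO. Usp20 and Usp35 fell with it, by the values given above, whereas Usp8, an endosomal deubiquitinase, was at 1984 and 2137 and then 984 and 1089 in WT and was not called under all 4 scalings. Usp48, a nuclear deubiquitinase, fell from 1111 and 1179 to 156 and 173 in WT and from 1186 and 1354 to 203 and 209 in cKO. Usp37, which acts on cyclin A, fell from 126 and 164 to 27.6 and 36.6 in WT and from 192 and 202 to 61.2 and 56.7 in cKO. Usp28 fell from 219 and 226 to 55.0 and 56.0 in WT and from 179 and 193 to 48.6 and 45.8 in cKO. In each of these genes all stimulated samples lay below all unstimulated ones as deposited. On that scale the median of all tested genes also differed by -1.24 in WT and -1.03 in cKO. All but Usp8 were picked as called falls, so this order is no separate test.

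Usp43 and Usp44 were listed at 0 in all 4 samples at 0 h. At 4 h Usp43 was at 2.29 and 0.981 in WT against 4.91 and 3.18 in cKO, and Usp44 at 0 and 1.01 in WT against 0.985 and 2.46 in cKO, so no fold is given.

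The make-up of each family does not depend on a factor applied to a whole sample, so it is the same under each scaling used but the quantile one. The 5 highest USPs of each sample held 32.7% to 33.5% of all USP coverage at 0 h and 51.3% to 55.4% at 4 h. Over all genes, summed coverage was similar at both times while the median log2 coverage was lower at 4 h. No such share was computed for other gene sets, so the rise is not read as particular to USPs. Usp47 took 3.39% to 3.86% of USP coverage at 0 h and 12.8% to 15.2% at 4 h, Usp12 3.13% to 3.68% and then 10.7% to 13.2%, and Usp25 7.26% to 7.78% and then 12.0% to 15.4%. Usp48 took 4.16% to 4.44% at 0 h and 0.726% to 0.819% at 4 h. For the E2s the 5 highest held 41.7% to 45.3% at 0 h and 46.3% to 48.5% at 4 h, and Ube2l6 took 0.838% to 1.40% and then 6.81% to 9.49%. These 5 genes were picked from those called with stimulation, so their shares are no separate test of the change. By genotype, Usp25 took 12.0% to 12.3% of USP coverage in stimulated WT and 14.87% to 15.4% in stimulated cKO, and Usp15 8.43% to 8.49% and 6.57% to 6.98%.

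**Figure D4:**
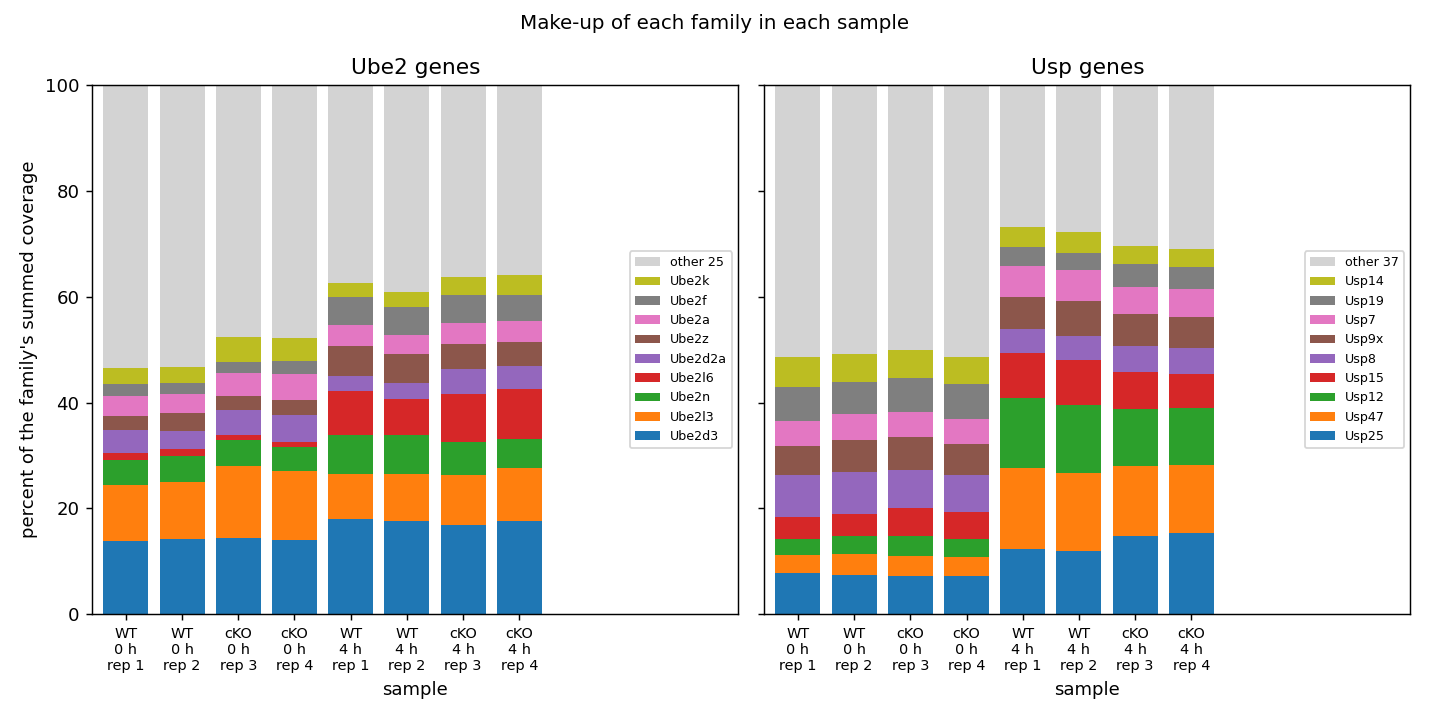
Percent of the summed coverage of Ube2 genes (left) and Usp genes (right) held by 9 of the genes with the highest mean share, with a bar for each of the 8 samples and grey for all other genes of the family. Usp25, Usp47 and Usp12 fill the base of the bars at 4 h, and Ube2l6 widens at 4 h.

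To ask whether the genotype acted differently at the 2 times, the genotype effect at 4 h was set against that at 0 h. None of the 76 genes passed limma's adjusted test (0 higher and 0 lower, beside 1.19% and 1.08% of all tested genes), and 14 (18.4%) had an unadjusted p under 0.05, beside 21.7% of all tested genes. On the deposited scale 1 gene (1.32%) was called higher, Usp35, whose genotype effect at 4 h lay 0.97 above that at 0 h, beside 2.28% of all tested genes. The lowest adjusted p were those of Usp33 (-0.79, adjusted p = 0.0544), Usp15 (-0.88, 0.0602) and Usp20 (0.77, 0.0823). In 7 genes (9.21%), the genotypes did not overlap at either time and lay in opposite orders, beside 10.4% of all tested genes. A share so near that of all genes is no result about E2 and USP genes. They were Ube2n, Ube2o, Usp10, Usp15, Usp20, Usp33 and Usp38, and their orders depend on the scaling. On the deposited scale 8 genes (10.5%) had opposite orders, beside 8.86% of all tested genes: Usp10, Usp20 and Usp33 again, and Ube2l6, Ube2r2, Ube2v1, Usp12 and Usp35.

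The number of UGUA motifs in the 3′UTR was then set beside the genotype difference. All 80 genes have an annotated 3′UTR, with a median length of 1481 bases and a median of 10 UGUA motifs, beside 1087 bases and 5 motifs over 13507 tested genes with a 3′UTR. Per kb of 3′UTR the medians were 5.89 and 5.05, and 7.5% of the E2 and USP genes and 12.0% of all tested genes had no motif. Usp15 held the most motifs (46), followed by Usp31 (37), Ube2k (31) and Usp9x (29).

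Across the 76 tested genes, Spearman's rho between motif count and log2 fold change was 0.57 at 0 h and 0.03 at 4 h. Over all 13507 genes it was 0.12 and 0.06. The 76 include Usp43 and Usp44, listed at 0 in all samples at 0 h, so no genotype difference was measured for them there. For motifs per kb of 3′UTR rho was 0.22 at 0 h and 0.14 at 4 h, and over all genes 0.075 and -0.04. The points share their samples, and motif count follows 3′UTR length. Length alone gave a rho of 0.45 at 0 h and -0.01 at 4 h, beside 0.1 and 0.106 over all genes. These are descriptions across genes, which are not independent replicates. At 0 h, 23 of the 25 genes with 15 or more motifs had a log2 fold change above 0 (median 0.23), against 17 of 36 with 5 to 14 motifs (median -0.01) and 5 of 15 with fewer than 5 (median -0.07). Over all tested genes the same 3 medians were 0.09, 0.00 and -0.04, with 1677 of 2737, 2403 of 4696 and 2769 of 6074 genes above 0. Usp43 (7 motifs) and Usp44 (2 motifs) are in the lower bins, though they have no measured difference at 0 h. At 4 h, 12 of the 25 genes with 15 or more motifs lay above 0 (median -0.05), beside 1435 of 2737 over all tested genes (median 0.04). The coverage of a whole gene does not show which 3′UTR isoform was used.

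**Figure D5:**
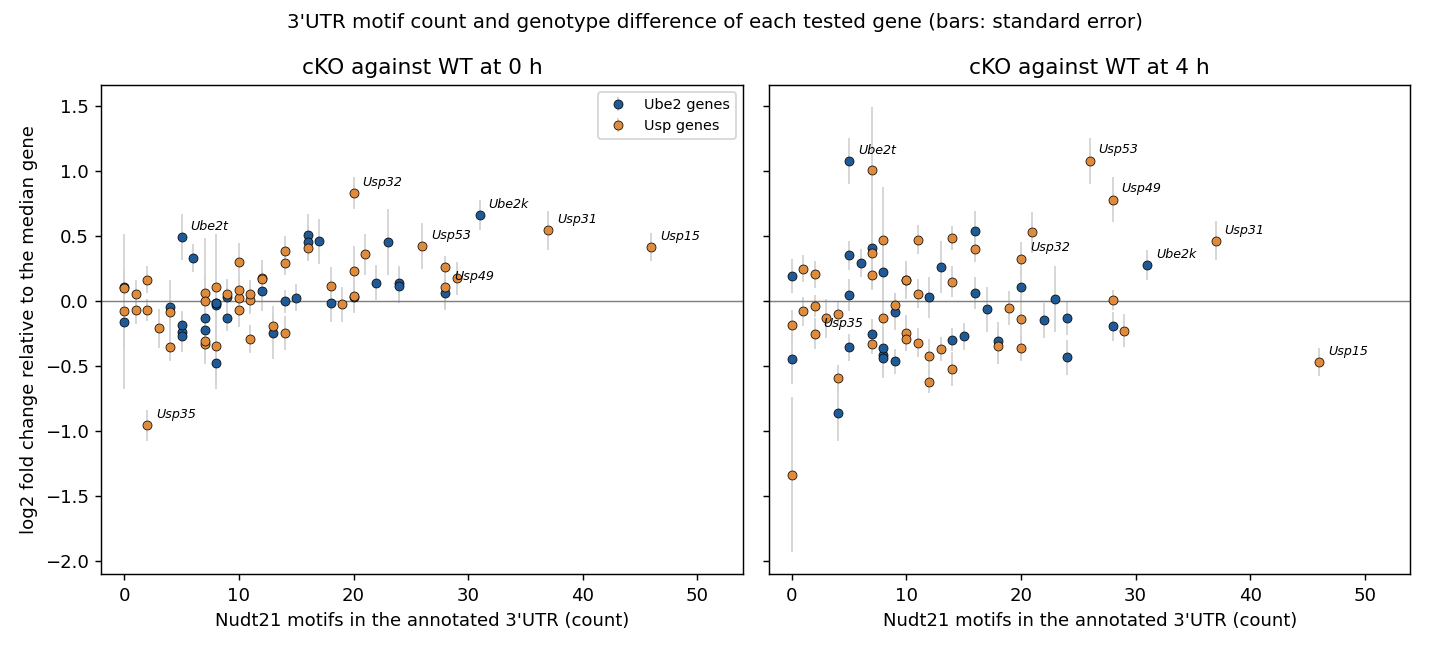
Number of UGUA motifs in the annotated 3′UTR (x axis) and log2 fold change of cKO against WT relative to the median gene (y axis) at 0 h (left) and 4 h (right), for 74 tested genes (Ube2cbp and Usp44, near 0, are left out), with standard errors. Usp43 had no coverage in any sample at 0 h, so its point on the left is not a measured difference. At 0 h genes with many motifs, such as Ube2k, Usp31 and Usp15, lie above 0, and at 4 h Usp15 lies below it.

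The rest of the ubiquitin pathway was read from lists of E1s, modifiers, other E2s, other deubiquitinases, HECT and RING-between-RING ligases and USP cofactors, 101 genes of which 100 were tested. At 0 h 1 was called higher (Smurf1, a HECT ligase, 0.65, adjusted p = 0.0454) and 1 lower (Otud1, an OTU deubiquitinase, -1.16, adjusted p = 0.0431). Each is 1 of the 100 tested, beside 2.69% and 2.11% of all genes. At 4 h 6 were called higher and 9 lower, near the 7.57% and 8.89% of all genes. Uba7, the E1 for ISG15, was among the higher genes (0.53, adjusted p = 0.0217), as were the deubiquitinases Otud7b (1.03) and Mindy2 (1.12), the HECT ligases Hectd3 (0.86) and Herc3 (0.92) and Cul9 (0.50). Among the lower genes were the E1 subunit Uba2 (-0.62), the deubiquitinases Otud6b (-0.37), Otulin (-0.37), Mindy3 (-0.79) and Psmd14 (-0.49), and the ligases Herc4 (-0.63) and Rnf14 (-0.63). As deposited, the 9 lower genes differed by -0.43 to -0.01, with -0.01 for Otud6b and Otulin and -0.13 for Psmd14, so their size depends on the scaling, and the 6 higher genes differed by 0.86 to 1.48. With stimulation 64 of the 100 were called higher and 14 lower in WT and 63 and 18 in cKO relative to the median gene, beside 36.9% and 23.5%, and 35.1% and 23.1%, of all genes, directions that depend on the scaling as for the E2 and USP genes.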

How the data were processed

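RNA was sequenced from 8 samples of BMDMs, 2 for each genotype and time. Per the study's methods and processing notes, the authors aligned paired-end reads with HISAT2 (2.2.1) to mm10 (GRCm38) and estimated genes with StringTie (2.1.7). The deposited values were read as a signal, the read depth averaged over each gene's bases (coverage), from the numbers themselves, so read counts per gene are unknown. Columns with the authors' own fold changes, p-values and classes were not used.

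Coverage was scaled so that each sample had the same median log2 value, and log2(coverage + 0.1) was fitted with limma (3.58.1, R 4.3.3) over 16284 genes with a mean of at least 0.5, all 4 groups in 1 fit. Fold changes on this scale understate those of low genes. Calls used a Benjamini-Hochberg adjusted p under 0.05 over all tested genes. Because the median gene moved between the times, calls were also required under all 4 scalings, a rule added after seeing the data. A run of the fit on simulated data is not reported here and is no support for the calls. Each sample is a pool of 2 mice, and the 2 times may share pools. The p-values set differences of group means against the spread between such pools, which is not the spread between mice. 

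Genes and lists were chosen with earlier results of these data known. Named were the genes called in a genotype comparison, the largest called changes with stimulation (10 each way), the most abundant genes and a fixed list of well-studied ones. Samples with the same number at both times did not deviate together (r = 0.02 in each genotype). Alternatives were other scalings, a pseudocount of 1, other filters (none, or at least 5), a variance trend, the study's rule (fold change above 1.5, unadjusted p under 0.05), a fit of the 4 samples of each time, a replicate block and leaving out each sample. 3′UTRs came from GENCODE M21 on GRCm38 (Python 3.11.15). Some items are not reported here.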

Additional observations from a re-analysis of the deposited data

Results flagged for a closer look

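In 7 genes the genotypes did not overlap at either time and lay in opposite orders, so every cKO sample was on one side of WT at 0 h and on the other at 4 h after scaling to the median gene. The genotype effect at 4 h minus that at 0 h (log2) was 0.77 for Usp20 (limma adjusted p = 0.0823), 0.54 for Ube2o (0.147) and 0.54 for Usp10 (0.122), which turned from lower to higher in cKO. It was -0.88 for Usp15 (0.0602), -0.79 for Usp33 (0.0544), -0.55 for Ube2n (0.188) and -0.38 for Usp38 (0.196), which turned from higher to lower. The turn depends on the scaling: on the deposited scale it was also seen for Usp10, Usp20 and Usp33, while the genotypes of Ube2n, Usp15 and Usp38 overlapped at 4 h and those of Ube2o at 0 h. None of these differences passed the adjusted test, and 10.4% of all tested genes met the same condition.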

How the results depend on the processing

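At 0 h, where 2 genes were called higher and 1 lower, quantile scaling gave 4 higher, no filter 1 and a variance trend 5 (4.59%, 2.12% and 5.31% of all genes). At 4 h, with 5 higher and 5 lower, the deposited scale gave 21 and 0 (19.6% and 3.38% of all genes), equal sums 9 and 2 (9.24% and 4.42%), quantile scaling 5 and 2 (7.18% and 6.34%), no filter 3 and 3 (5.31% and 5.86%), and the study's rule 3 and 3 (10.1% and 10.6%). There a minimum of 5 gave 10 lower and a variance trend 16 lower, beside 15.1% and 13.4% of all genes. A fit of only the 4 samples of a time called 0 genes in either direction at both times. Leaving out 1 sample gave 0 to 1 higher and 0 to 1 lower at 0 h (125 of 16160 to 490 of 16320 and 0.606% to 2.40% of all genes), and 0 to 5 higher and 0 to 5 lower at 4 h (1.96% to 7.49% and 1.61% to 8.43%). Usp54 at 4 h turned from -0.33 to 0.0274 on the deposited scale.

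With stimulation, 50 higher and 10 lower in WT became 15 and 44 on the deposited scale, 23 and 25 under quantile scaling (24.1% and 33.0% of all genes) and 15 and 41 with equal sums (13.3% and 56.9%). In cKO 47 and 9 became 18 and 40, 23 and 26 (23.0% and 33.4%), and 17 and 42 (14.2% and 55.3%). Here the alternative's own scaling moves the median gene. For the difference of the genotype effect, the deposited scale and equal sums each gave 1 higher (2.28% and 1.77% of all genes), a minimum of 5 and a variance trend each gave 2 lower (260 of 12974 and 697 of 16284 genes), the study's rule gave 4 higher and 4 lower (7.76% and 8.58%), and leaving out 1 sample gave 0 to 1 lower (0.527% to 1.83%). The cause of the other shifts was not tested.

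With a replicate block the counts were 2 and 1 at 0 h (2.71% and 2.14% of all genes), 5 and 5 at 4 h (7.55% and 8.86%), 46 and 9 with stimulation in WT (5556 and 3421 of 16284 genes), 41 and 8 in cKO (31.6% and 20.3%), and 0 and 0 for the difference (0.123% and 0.0614%). Whether samples with the same number share more than the number is not stated. Without read counts, the counting error of low genes such as Usp44 is unknown.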
